A study of Mus musculus with 16 samples.

Results

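The extracellular matrix, the integrins that bind it and the proteases that cut it were examined in mouse liver as 63 genes. They are the protein-coding genes in either of the 2 deposited tables whose names begin as those of collagens, laminins, fibulins, latent TGF-β binding proteins, lysyl oxidases, matrix metalloproteinases (MMPs), ADAM and ADAMTS proteases, TIMPs, integrins or TGF-β genes do, together with lumican and biglycan. Of 5205 genes in either table, 63 were members, and the same name pattern takes in 195 genes of GENCODE M21. Genes left out by name, among them Col1a1, Col1a2, Col3a1, Timp1 and Thbs1, were 8. Each table holds 1 genotype, and 56 members were listed for TSP1F/F, 21 for TSP1ΔPf4 and 14 for both, so that 42 were listed for TSP1F/F alone and 7 for TSP1ΔPf4 alone.

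RNA was sequenced from the livers of 16 male C57BL6 mice, 4 in each of 4 groups. TSP1F/F mice have loxP-flanked Thbs1, the gene of thrombospondin 1, and keep it intact. Their TSP1ΔPf4 littermates carry the same floxed alleles together with Cre recombinase under the Pf4 promoter, which removes the gene in megakaryocytes and the platelets they shed. Each genotype received the low-fat (LF) diet or the AMLN diet, which is rich in fat, fructose and cholesterol and induces steatohepatitis, for 32 weeks. The age of the mice is not in the labels, and the paper's supplement lists 8 weeks for both lines without saying at which point of the feeding. Thbs1 was listed for TSP1F/F only, so its level in TSP1ΔPf4 livers was not analysed here and the genotype was taken from the labels. The libraries held 17127965 to 39753019 counts, with medians in TSP1F/F mice of 18908941 on LF and 27661650 on AMLN and of 18838183 and 27148200 in the TSP1ΔPf4 groups. Levels are given as CPM, counts scaled to a common library total. Where members are compared with each other they are given as FPKM, which is also per 1000 bases of gene length. In the pathway and marker lists the most abundant gene was taken by mean CPM, without regard to gene length.

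In a healthy liver, basement membrane collagens and laminins line vessels and ducts, and the space between sinusoid and hepatocyte holds a loose matrix. During steatohepatitis, activated stellate cells and portal fibroblasts deposit fibrillar and microfibrillar collagens, lysyl oxidases cross-link them, and MMPs, ADAM and ADAMTS enzymes and their TIMP inhibitors govern their turnover. Integrins, which pair an α with a β chain, hold cells to this matrix and, on leukocytes, to the vessel wall, and TGF-β, released from its latent complex, is the main signal for matrix synthesis.

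The diet comparison asked which of these genes differed after AMLN feeding within a genotype. The authors had kept only genes with an unadjusted p-value under 0.05 in that very comparison, so a listed gene was likely to differ between the diets, and the counts that follow describe the listed members. In TSP1F/F mice, the mean CPM was higher on the AMLN diet in 54 of 56 members, against 67.5% of all 2558 listed genes, and the 4 AMLN-fed mice lay above the 4 LF-fed mice without overlap in 27 members, against 33.9% of the listed genes. A filter on low counts (filterByExpr) was passed by 47 of the 56. Of these, 40 were higher at an unadjusted p under 0.05, against 53% of the 2096 genes tested. A call was made by edgeR (quasi-likelihood F) where the p with Benjamini-Hochberg adjustment was under 0.05 and the log2 fold change beyond 0.25 in either direction. It called 1 of 47 members raised, Adam8, and 0 lowered, against 2.39% and 0.0954% of the genes tested, while DESeq2 called 14 members, all raised, against 13.6% of the genes tested called raised by it and 21.8% lowered. The members' median log2 fold change was 1.73 (also with the 2 genes at 0 on the LF diet set at their lower bound), beside 1.15 over all 2096 genes. Both depended on the scaling, being 1.53 and 0.97 with TMM and 1.33 and 0.78 by the DESeq2 scaling, and over all genes DESeq2 called 285 raised and 456 lowered where edgeR called 50 and 2.

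In TSP1ΔPf4 mice, the mean was higher on the AMLN diet in 19 of 21 members, against 44.2% of 3399 listed genes. The diet groups did not overlap in 8 members. These were 7 with higher values on the AMLN diet and 1 with lower values, against 21.4% and 27.3% of the listed genes. Of the 19 members that passed the filter, 14 were higher at an unadjusted p under 0.05, against 33.8% of 3089 genes tested. By edgeR with Benjamini-Hochberg adjustment, 1 member was called raised, Itgb2, and 0 lowered, against 1.46% and 1.52% of the genes tested, and DESeq2 called 12, all raised, against 32.7% of the genes tested called raised by it and 11.8% lowered. The median log2 fold change was 0.97 over the members and -0.54 over all genes tested. With TMM these were 1.29 and -0.21, and with DESeq2's size factors 1.31 and -0.20. Over all genes, the 45 raised and 47 lowered calls of edgeR became 160 and 38 with TMM and 1010 and 366 with DESeq2. The tests of the 2 genotypes do not compare their diet effects, for which an interaction term was fitted and is given with the genotype comparison. Since these are whole livers, fewer cells of a type and less RNA per cell cannot be told apart in any of the values.

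**Figure D1:**
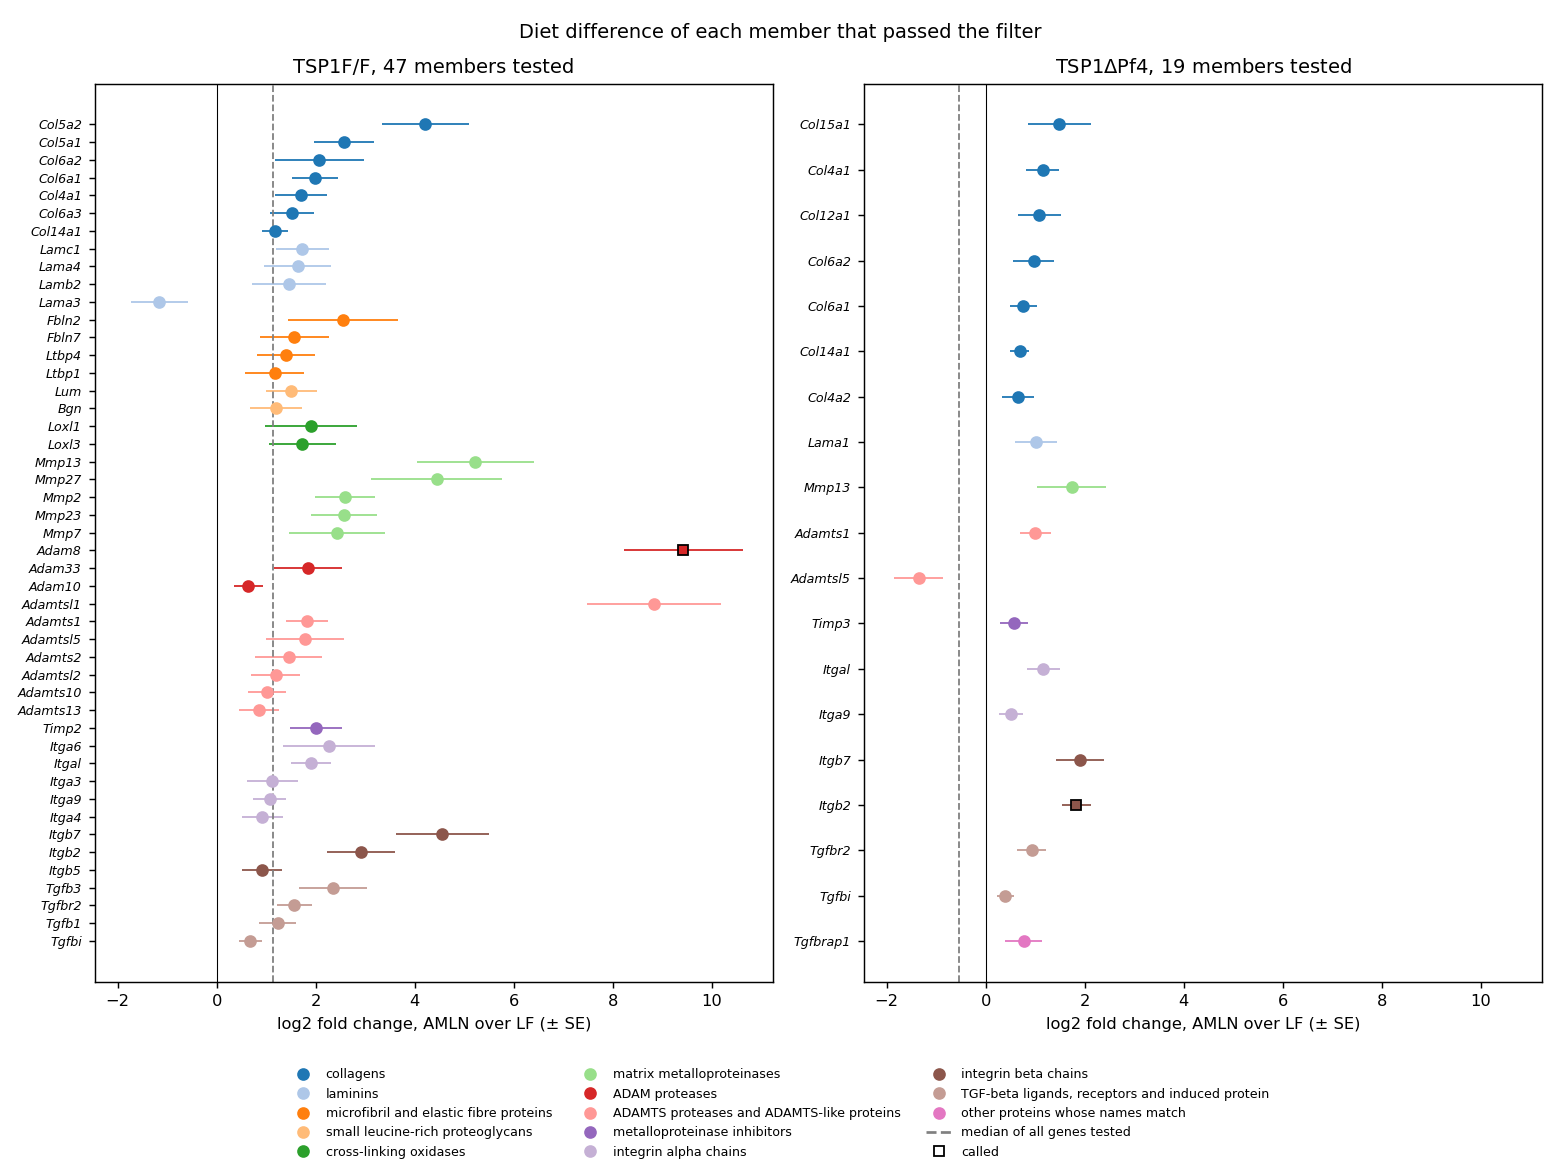
Log2 fold change of CPM, AMLN over LF (horizontal axis), of each member that passed the filter, with its SE, in TSP1F/F mice (left, 47 members) and TSP1ΔPf4 mice (right, 19 members). Colours mark roles, squares the called genes Adam8 and Itgb2, and dashed lines the medians of all genes tested, 1.15 and -0.54. Lama3 on the left and Adamtsl5 on the right lie below 0.

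By FPKM in AMLN-fed TSP1F/F livers, the most abundant members were the integrin chain Itgb5 at 15.7 ± 7.50 (SD, n = 4), Bgn at 15.1 ± 6.96, Lum at 15.1 ± 11.5, Tgfbi at 10.8 ± 0.828 and Timp2 at 8.31 ± 5.001. The spreads of these neighbours overlapped, so their order is not fixed by 4 mice. In AMLN-fed TSP1ΔPf4 livers, Tgfbi stood first at 12.9 ± 1.10 (SD, n = 4), followed by Col14a1 at 6.69 ± 1.16, Tgfbrap1 at 3.37 ± 1.09, Tgfbr2 at 3.34 ± 1.15 and Col4a1 at 3.25 ± 1.29. Tgfbi, Col14a1 and the members after them were separated there by more than their SDs, and Tgfbrap1, Tgfbr2 and Col4a1 were not separated from one another.

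Of the 12 collagen members, 8 were listed for TSP1F/F and 8 for TSP1ΔPf4, with 4 in both. All 8 had a higher mean on the AMLN diet in TSP1F/F mice, 5 of them without overlap, against 67.5% and 33.9% of all listed genes. In TSP1ΔPf4 mice 7 of 8 had a higher mean, 1 without overlap, against 44.2% and 21.4%. Among the 7 tested in each genotype, log2 fold changes ran from 1.18 to 4.21 in TSP1F/F and from 0.65 to 1.48 in TSP1ΔPf4. With edgeR and Benjamini-Hochberg adjustment, 0 collagens were called in either genotype, with adjusted p-values from 0.0773 to 0.473 and from 0.101 to 0.317. At an unadjusted p under 0.05 there were 7 of 7 and 6 of 7, against 53% and 33.8% of the genes tested, and DESeq2 called 3 and 4 raised, against 13.6% and 32.7%.

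Collagen VI, which forms beaded microfilaments beside cells, was represented by 3 chains. Col6a1 had 2.77, 5.36, 1.65 and 3.26 CPM in LF-fed and 13.6, 7.01, 21.2 and 9.86 in AMLN-fed TSP1F/F mice. In TSP1ΔPf4 mice it had 5.74, 5.85, 4.96 and 5.09 on LF and 9.51, 8.88, 12.7 and 5.64 on AMLN. The diets did not overlap in TSP1F/F, and in TSP1ΔPf4 replicate 4 on AMLN fell within the LF range, with log2 fold changes of 1.98 ± 0.47 (SE) and 0.76 ± 0.27 (SE). Col6a2 had 1.98, 2.57, 0.0551 and 2.48 CPM in LF-fed and 7.47, 3.01, 17.7 and 1.69 in AMLN-fed TSP1F/F mice, and AMLN-fed replicate 3, at 17.7 CPM, was far above the other mice. In TSP1ΔPf4 mice its values were 2.97, 2.995, 1.40 and 3.77 on LF and 3.20, 5.26, 9.69 and 3.70 on AMLN. The log2 fold changes of Col6a2 were 2.07 ± 0.90 (SE) (1.19 without AMLN-fed replicate 3) and 0.97 ± 0.42 (SE), and the diets overlapped in both genotypes. The partner chain Col6a3 was listed for TSP1F/F only, where its 4 AMLN-fed mice lay above the LF-fed mice at a log2 fold change of 1.52 ± 0.45 (SE).

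Col14a1, a collagen that decorates fibrils, was the most abundant collagen member by FPKM in all 4 groups. It had 22.2, 24.8, 18.8 and 21.6 CPM in LF-fed TSP1F/F mice and 41.4, 33.7, 65.9 and 56.4 in AMLN-fed ones. The TSP1ΔPf4 mice had 29.9, 31.5, 31.4 and 24.1 on LF and 38.6, 50.4, 56.6 and 42.0 on AMLN. In both genotypes the diets did not overlap, at log2 fold changes of 1.18 ± 0.27 (SE) and 0.68 ± 0.20 (SE). Col5a2, a chain of the collagen that starts fibril assembly, was listed for TSP1F/F only and had 0.157, 0, 0.165 and 0.525 CPM on LF and 3.18, 2.42, 7.52 and 3.54 on AMLN. The diets did not overlap, with a log2 fold change of 4.21 ± 0.88 (SE) (5.22 without LF-fed replicate 4), and it missed the call by edgeR with Benjamini-Hochberg adjustment (adjusted p = 0.0773). Col5a2 passed the filter only through its AMLN-fed mice, in a table selected on this comparison, so this test is a description. The partner chain Col5a1 did not overlap between the diets either, at a log2 fold change of 2.58 ± 0.61 (SE).

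Col4a1 and Col4a2 encode the paired chains of the main basement membrane collagen and lie head to head on chromosome 8 of mm10. In the deposited coordinates Col4a1 ends at 11312826, where its transcription begins on the reverse strand, and Col4a2 begins at 11312805 on the forward strand. The windows of 300 bases around their starts, from RefSeq for GRCm38.p6, share 78 bases, and both are shown because the chains are made together. Capitals mark the GC box letters GGGCGG and the CCAAT letters, on either strand.
Col4a1, chr8:11312777-11313076, reverse strand: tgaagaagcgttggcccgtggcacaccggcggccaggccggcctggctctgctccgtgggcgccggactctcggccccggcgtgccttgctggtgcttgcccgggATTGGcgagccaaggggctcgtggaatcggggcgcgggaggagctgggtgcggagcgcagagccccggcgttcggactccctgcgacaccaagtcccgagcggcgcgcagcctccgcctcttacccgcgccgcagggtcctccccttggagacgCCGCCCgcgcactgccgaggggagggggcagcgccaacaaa
Col4a2, chr8:11312555-11312854, forward strand: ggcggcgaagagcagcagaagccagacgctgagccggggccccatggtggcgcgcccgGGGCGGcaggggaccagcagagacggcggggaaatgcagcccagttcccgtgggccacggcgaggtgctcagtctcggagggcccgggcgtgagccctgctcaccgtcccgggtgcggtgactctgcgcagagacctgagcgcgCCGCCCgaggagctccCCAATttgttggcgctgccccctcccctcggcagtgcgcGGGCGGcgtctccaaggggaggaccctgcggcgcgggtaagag
GGGCGG or its reverse complement was found in 35.7% of all 32851 promoter windows and CCAAT or its reverse complement in 37.4%. RefSeq windows were matched for 41 of the 63 members, of which 26 held the GC box letters and 14 the CCAAT letters. A member was counted if any of its windows held the letters, with 49 windows for the 41 members. The percentages are over single windows, so here and for the letters marked in other genes the units differ.

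Col4a1 had 7.52, 5.68, 4.69 and 8.93 CPM in LF-fed and 21.5, 7.77, 46.9 and 10.8 in AMLN-fed TSP1F/F mice. In TSP1ΔPf4 mice the values were 15.0, 10.9, 7.88 and 9.92 on LF and 33.4, 22.7, 29.4 and 11.4 on AMLN. Replicate 3 was the high mouse of the AMLN-fed TSP1F/F group and replicate 4 the low mouse of the AMLN-fed TSP1ΔPf4 group, and the diets overlapped in both genotypes. The log2 fold changes were 1.70 ± 0.53 (SE), 1.00 without that TSP1F/F mouse, and 1.15 ± 0.33 (SE). Col4a2 was listed for TSP1ΔPf4 only, with 8.55, 8.89, 4.32 and 5.36 CPM on LF and 11.4, 11.2, 13.8 and 6.12 on AMLN. Its lowest AMLN-fed mouse was again replicate 4, inside the LF range, and its log2 fold change was 0.65 ± 0.32 (SE). Col7a1, the collagen of anchoring fibrils, was at 0 in all 4 TSP1ΔPf4 mice on AMLN, with 0, 0, 0.234 and 1.38 CPM on LF, where 2 mice were also at 0, and it did not pass the filter.

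Of the 5 laminin genes, whose products assemble basement membranes, 4 were listed for TSP1F/F and 1, Lama1, for TSP1ΔPf4. Lamc1, the γ chain shared by most laminins, had 5.32, 3.11, 1.38 and 4.77 CPM on LF and 14.6, 11.1, 18.7 and 3.98 on AMLN in TSP1F/F mice. Lamb2 had 1.93, 1.13, 0.441 and 1.24 on LF and 3.51, 1.21, 7.45 and 0.871 on AMLN. In both genes AMLN-fed replicate 4 sat among the LF-fed mice and replicate 3 was the highest. Their log2 fold changes were 1.73 ± 0.54 (SE) and 1.46 ± 0.76 (SE), and without replicate 3 that of Lamb2 was 0.66. Lama3 was the only member tested in TSP1F/F with a negative log2 fold change, -1.16 ± 0.58 (SE), with 5.22, 1.93, 1.99 and 3.86 CPM on LF and 2.54, 1.44, 0.855 and 0.980 on AMLN. In edgeR's test with Benjamini-Hochberg adjustment, 0 of 4 laminins were called in TSP1F/F (adjusted p-values from 0.249 to 0.637), 2 had an unadjusted p under 0.05, against 53% of the genes tested, and DESeq2 called 0. Lama1 in TSP1ΔPf4 mice had 1.65, 3.48, 1.23 and 1.64 CPM on LF and 2.67, 4.15, 6.50 and 2.97 on AMLN, a log2 fold change of 1.02 ± 0.42 (SE).

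Fibulins and latent TGF-β binding proteins, which sit on microfibrils and elastic fibres and anchor latent TGF-β, gave 4 members, all listed for TSP1F/F alone. Ltbp4 had 17.9, 13.5, 2.59 and 14.6 CPM on LF and 27.8, 12.5, 65.0 and 23.0 on AMLN. Fbln2 had 0.418, 0, 0.496 and 1.46 on LF and 0.424, 2.42, 9.81 and 1.58 on AMLN. AMLN-fed replicate 3 was the highest mouse for both genes, and the diets overlapped, with log2 fold changes of 1.40 ± 0.59 (SE) and 2.55 ± 1.12 (SE). Without that mouse the values were 0.80 for Ltbp4 and 1.28 for Fbln2, and without LF-fed replicate 4 that of Fbln2 was 3.53. By edgeR with Benjamini-Hochberg adjustment, 0 of the 4 were called (adjusted p-values from 0.451 to 0.608), 3 had an unadjusted p under 0.05, against 53% of the genes tested, and DESeq2 called 0.

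The small leucine-rich proteoglycans biglycan and lumican bind collagen fibrils and were among the most abundant members, both for TSP1F/F only. Bgn had 62.7, 35.4, 8.77 and 54.1 CPM on LF and 120.0, 48.2, 136 and 65.0 on AMLN. Lum had 6.37, 19.2, 16.9 and 9.64 on LF and 20.0, 19.2, 30.2 and 78.7 on AMLN. The highest mouse differed between them, replicate 3 for Bgn and replicate 4 for Lum, and the diets overlapped in both. Their log2 fold changes were 1.20 ± 0.53 (SE) and 1.51 ± 0.51 (SE), the second being 0.83 without AMLN-fed replicate 4. Neither was called by edgeR with Benjamini-Hochberg adjustment (adjusted p = 0.479 and 0.306) or by DESeq2. Both had an unadjusted p under 0.05, against 53% of the genes tested.

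Lysyl oxidases, the copper enzymes that cross-link collagen and elastin, were few and low. Lox had 0, 0.429, 0 and 0.0375 CPM in LF-fed and 0.575, 0.180, 2.31 and 2.18 in AMLN-fed TSP1F/F mice. The TSP1ΔPf4 mice had 0 counts in all 4 LF-fed mice and 0.400, 0.411, 0.670 and 0.345 CPM in the AMLN-fed mice, at least 2.61-fold higher, taking 3 counts in the smallest LF library as the floor. Lox did not pass the filter in either diet comparison. Loxl1 had 1.72, 0.107, 0.165 and 2.59 CPM on LF and 4.63, 1.21, 8.48 and 3.05 on AMLN in TSP1F/F mice, and Loxl3 had 0.157, 0.482, 0.496 and 0.863 on LF and 2.51, 1.21, 1.74 and 1.25 on AMLN. The diets overlapped for Loxl1 and not for Loxl3, with log2 fold changes of 1.91 ± 0.93 (SE) (2.697 without LF-fed replicate 4) and 1.73 ± 0.68 (SE). Neither was called by edgeR with Benjamini-Hochberg adjustment (adjusted p = 0.563 and 0.401) or by DESeq2. Loxl3 alone had an unadjusted p under 0.05, against 53% of the genes tested. Loxl3 shares 11.6% of its exon bases with a gene on the opposite strand, and the counts are not stated to be by strand.

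Of the MMPs, the zinc enzymes that degrade matrix, 6 were listed for TSP1F/F and 1 of these, Mmp13, also for TSP1ΔPf4. In TSP1F/F mice all 6 had a higher mean on the AMLN diet, 4 of them without overlap, against 67.5% and 33.9% of all listed genes. The 5 tested had log2 fold changes from 2.43 to 5.22, with a median of 2.59. With edgeR and Benjamini-Hochberg adjustment, 0 of the 5 were called (adjusted p-values from 0.105 to 0.417), while all 5 had an unadjusted p under 0.05, against 53% of the genes tested, and DESeq2 called 3 raised, against 13.6%. Mmp13 and Mmp27 had counts in only 1 LF-fed TSP1F/F mouse each. They passed the filter only through their AMLN-fed mice, in a table selected on this comparison, so their tests there are descriptions. In TSP1ΔPf4 Mmp13 also passed only through its AMLN-fed mice, so its diet test in that genotype is a description too.

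Mmp13, interstitial collagenase of rodents (ENSMUSG00000050578, chromosome 9 from 7272514 to 7283331 on the forward strand), had 0.418, 0, 0 and 0 CPM in LF-fed and 2.96, 2.16, 6.74 and 3.98 in AMLN-fed TSP1F/F mice. In TSP1ΔPf4 mice it had 0.266, 0.435, 0.234 and 0 on LF and 0.567, 0.699, 0.733 and 1.21 on AMLN. All AMLN-fed mice were above all LF-fed mice in both genotypes, and the AMLN-fed TSP1ΔPf4 mice lay between the LF-fed mice and the AMLN-fed TSP1F/F mice. The log2 fold changes for the diet were 5.22 ± 1.18 (SE) in TSP1F/F and 1.73 ± 0.70 (SE) in TSP1ΔPf4. LF-fed replicate 1 was the only LF-fed TSP1F/F mouse above 0. Without it the AMLN-fed mean was at least 23.9-fold higher against the floor of 3 counts, and the fitted value of 9.65 depends on the prior count. Its promoter window from RefSeq for GRCm38.p6 is shown because Mmp13 was the member called between the genotypes. Capitals mark the AP-1 letters TGANTCA and the TATA letters TATAAA.
Mmp13, chr9:7272264-7272563, forward strand: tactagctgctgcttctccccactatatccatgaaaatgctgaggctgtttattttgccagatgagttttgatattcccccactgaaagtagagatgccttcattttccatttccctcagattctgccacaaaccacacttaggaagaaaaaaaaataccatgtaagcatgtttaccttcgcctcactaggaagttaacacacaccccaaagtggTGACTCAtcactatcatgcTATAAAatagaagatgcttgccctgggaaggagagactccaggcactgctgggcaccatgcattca
TGANTCA, which reads the same on both strands, was found in 7.81% of all promoter windows and in 5 of the 41 members with a window, Col6a1, Itga3, Itga9, Mmp13 and Mmp7. TATAAA or its reverse complement was found in 13.6% of windows and in 5 of the 41 members. In Mmp13 the first base of the AP-1 letters is at -35 from the start and that of the TATA letters at -16.

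Mmp27 had 0, 0, 0.827 and 0 CPM on LF and 2.18, 2.25, 3.09 and 10.3 on AMLN in TSP1F/F mice. Mmp2, the gelatinase made by stellate cells, had 0.939, 0.536, 0.386 and 0.713 on LF and 3.33, 2.47, 7.45 and 2.34 on AMLN. Mmp7, matrilysin of epithelial cells, had 0.835, 0.214, 0.551 and 0.0750 on LF and 0.242, 1.39, 2.36 and 5.06 on AMLN. Replicate 4 was the highest AMLN-fed mouse for Mmp27 and Mmp7 and replicate 3 for Mmp2, and the diets overlapped only for Mmp7 among these 3. Log2 fold changes were 4.45 ± 1.32 (SE), 2.59 ± 0.60 (SE) and 2.43 ± 0.98 (SE). That of Mmp27 was 3.62 without AMLN-fed replicate 4. Without LF-fed replicate 3 the other LF-fed mice are at 0 for Mmp27, the AMLN-fed mean was at least 27.7-fold higher against the same floor, and the fitted value of 9.82 depends on the prior count. That of Mmp7 was 1.68 without AMLN-fed replicate 4 and 3.02 without LF-fed replicate 1. Mmp7 shares 11.5% of its exon bases with a gene on the opposite strand. Mmp8, the collagenase of neutrophils, was at 0 in all LF-fed mice and in 2 of 4 AMLN-fed mice and did not pass the filter, and Mmp23 did not overlap between the diets, at 2.57 ± 0.67 (SE).

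ADAM proteases cut proteins at the cell surface, and their 5 members were listed for TSP1F/F only. Adam8 (ENSMUSG00000025473, chromosome 7 from 139978932 to 139992562 on the reverse strand), found mainly on leukocytes, had 0 counts in all 4 LF-fed mice and 2.51, 1.57, 6.26 and 3.65 CPM in the AMLN-fed mice. This is at least 21.2-fold higher against a floor of 3 counts in the smallest LF library. In edgeR's test with Benjamini-Hochberg adjustment, Adam8 was called (adjusted p = 0.0263, higher in 4 of 4 mice), but it passed the filter only through its AMLN-fed mice, in a table selected on this comparison, so the call is a description. Its fitted log2 fold change of 9.43 depends on the prior count. The call was kept without LF replicate 3. It was lost without LF replicate 1, 2 or 4 (log2 fold changes of 9.47, 9.47 and 9.41) and without AMLN replicate 1, 2, 3 or 4 (9.48, 9.69, 8.85 and 9.46). Adam10, the broadly expressed sheddase, was the most abundant ADAM by FPKM and had 20.8, 15.4, 12.7 and 15.7 CPM on LF and 21.3, 17.5, 34.2 and 27.9 on AMLN, a log2 fold change of 0.64 ± 0.29 (SE) with overlapping diets. Adam33 did not overlap between the diets, at 1.85 ± 0.69 (SE), and Adam22 and Adam32 did not pass the filter. Adam32 was, with Lama3, 1 of the 2 members with a lower mean on AMLN, having 0 counts in every AMLN-fed mouse and 0, 0.107, 1.38 and 0.713 CPM on LF.

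Of 11 ADAMTS proteases and ADAMTS-like proteins, which process procollagen, proteoglycans and microfibrils, all 11 were listed for TSP1F/F and 2 of them for TSP1ΔPf4. All 11 had a higher mean on the AMLN diet in TSP1F/F, 5 without overlap, against 67.5% and 33.9% of all listed genes. Of the 7 tested there, 0 were called by edgeR with Benjamini-Hochberg adjustment (adjusted p-values from 0.0529 to 0.526), 5 had an unadjusted p under 0.05, against 53% of the genes tested, and DESeq2 called 2, against 13.6%. Adamts1, which cuts versican and aggrecan, had 4.49, 2.25, 2.21 and 2.74 CPM in LF-fed and 5.23, 9.88, 11.5 and 15.0 in AMLN-fed TSP1F/F mice. The TSP1ΔPf4 mice had 3.82, 5.31, 3.68 and 3.02 on LF and 6.17, 7.24, 12.3 and 5.94 on AMLN. The diets did not overlap in either genotype, with log2 fold changes of 1.83 ± 0.42 (SE) and 1.00 ± 0.31 (SE). Adamtsl1 had 0 counts in all 4 LF-fed TSP1F/F mice and 1.88, 0.674, 4.58 and 2.12 CPM in the AMLN-fed mice, at least 13.98-fold higher against the same floor, and it missed the call by edgeR with Benjamini-Hochberg adjustment (adjusted p = 0.0529). It passed the filter only through its AMLN-fed mice, in a table selected on this comparison, so this test is a description. Adamts10, a microfibril-associated member, had 5.01, 5.31, 2.59 and 2.44 CPM on LF and 9.35, 6.69, 6.79 and 8.33 on AMLN, a log2 fold change of 1.02 ± 0.39 (SE) without overlap.

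Adamtsl5 (ENSMUSG00000043822, chromosome 10 from 80339110 to 80348412 on the reverse strand), a secreted ADAMTS-like protein without a protease domain, was, among the 14 shared members, the one with a lower mean on AMLN in TSP1ΔPf4 and a higher mean in TSP1F/F. In TSP1F/F mice it had 0.313, 0.268, 0.772 and 0.113 CPM on LF and 2.42, 0.898, 1.01 and 0.708 on AMLN. In TSP1ΔPf4 mice it had 0.850, 0.966, 1.23 and 0.743 on LF and 0.334, 0.206, 0.574 and 0.345 on AMLN. LF-fed replicate 3 overlapped the AMLN-fed mice in TSP1F/F, whereas in TSP1ΔPf4 all 4 AMLN-fed mice were below all 4 LF-fed mice. The log2 fold changes were 1.79 ± 0.79 (SE) (2.45 without LF-fed TSP1F/F replicate 3) and -1.35 ± 0.49 (SE), and neither was called by edgeR with Benjamini-Hochberg adjustment (adjusted p = 0.477 and 0.170). Adamtsl5 passed the filter only through its AMLN-fed mice in TSP1F/F and only through its LF-fed mice in TSP1ΔPf4. Both tables were selected on this comparison, so these tests are descriptions.

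The TIMPs, which block MMPs and ADAMs, gave 1 member per genotype. Timp2 had 11.4, 9.75, 2.43 and 8.59 CPM on LF and 22.2, 16.4, 60.2 and 30.6 on AMLN in TSP1F/F mice. All AMLN-fed mice lay above the LF-fed mice, replicate 3 by far, with a log2 fold change of 2.01 ± 0.52 (SE). Timp3, which binds the matrix itself, had 3.40, 5.70, 3.85 and 5.36 CPM on LF and 5.57, 6.29, 6.86 and 8.57 on AMLN in TSP1ΔPf4 mice, with overlap and a log2 fold change of 0.57 ± 0.27 (SE). Neither was called by edgeR with Benjamini-Hochberg adjustment (adjusted p = 0.160 and 0.291). DESeq2 called both raised, against 13.6% and 32.7% of the genes tested. Timp3 lies within Syn3 on the opposite strand, with which it shares 21.3% of its exon bases.

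Integrin α chains gave 5 members, all listed for TSP1F/F and 2, Itgal and Itga9, for both genotypes. Itgal, the α chain of LFA-1 on leukocytes, had 2.35, 4.29, 3.86 and 3.04 CPM in LF-fed and 11.8, 6.11, 18.4 and 14.5 in AMLN-fed TSP1F/F mice. The TSP1ΔPf4 mice had 3.61, 3.62, 4.32 and 4.83 on LF and 4.17, 13.0, 8.83 and 10.8 on AMLN. The diets did not overlap in TSP1F/F, and in TSP1ΔPf4 AMLN-fed replicate 1 was within the LF range, with log2 fold changes of 1.91 ± 0.40 (SE) and 1.16 ± 0.34 (SE). Itga9, which binds tenascin and osteopontin, had 6.26, 8.79, 5.13 and 6.30 CPM on LF and 15.8, 8.94, 18.7 and 12.1 on AMLN in TSP1F/F mice. In TSP1ΔPf4 mice the values were 10.9, 9.23, 7.77 and 8.75 and 8.94, 14.2, 14.3 and 15.1, and AMLN-fed replicate 1 was far below the other AMLN-fed mice. Its log2 fold changes were 1.07 ± 0.33 (SE) and 0.52 ± 0.24 (SE). By edgeR with Benjamini-Hochberg adjustment, 0 of 5 α chains were called in TSP1F/F (adjusted p-values from 0.0829 to 0.507) and 0 of 2 in TSP1ΔPf4 (0.104 and 0.265). With an unadjusted p under 0.05 there were 4 and 1, against 53% and 33.8% of the genes tested, and DESeq2 called 1 and 2, against 13.6% and 32.7%. Itga3, Itga4 and Itga6 were listed for TSP1F/F, with log2 fold changes of 1.12, 0.92 and 2.27, the last being 1.58 without AMLN-fed replicate 3.

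Integrin β chains gave 3 members, of which the leukocyte chains Itgb2 and Itgb7 were listed for both genotypes. Itgb2 (ENSMUSG00000000290, chromosome 10 from 77530252 to 77565708 on the forward strand), the chain shared by LFA-1, Mac-1 and the other leukocyte integrins of that class, had 2.66, 0.107, 2.76 and 2.18 CPM in LF-fed and 9.41, 11.4, 21.8 and 15.9 in AMLN-fed TSP1F/F mice. In TSP1ΔPf4 mice it had 1.81, 2.46, 2.63 and 3.71 on LF and 7.11, 10.4, 8.83 and 11.4 on AMLN. The diets did not overlap in either genotype. With edgeR and Benjamini-Hochberg adjustment, Itgb2 rose in TSP1ΔPf4 mice (log2 fold change 1.83 ± 0.29 (SE), adjusted p = 0.0316, higher in 4 of 4 mice). In TSP1F/F its log2 fold change was 2.92 ± 0.69 (SE), which was not called (adjusted p = 0.116, edgeR with Benjamini-Hochberg adjustment). The call in TSP1ΔPf4 was lost without LF replicate 2 or 4 or AMLN replicate 1, 2 or 3, where the log2 fold changes were 1.79, 2.03, 1.94, 1.78 and 1.86.

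Itgb7, the β chain of the gut-homing lymphocyte integrin, had 0.365, 0.107, 0 and 0.0375 CPM in LF-fed and 3.63, 1.71, 4.08 and 2.83 in AMLN-fed TSP1F/F mice. The TSP1ΔPf4 mice had 1.33, 0.531, 0.292 and 1.22 on LF and 1.97, 3.33, 3.09 and 4.35 on AMLN. The diets were apart in both genotypes, with log2 fold changes of 4.56 ± 0.94 (SE) and 1.91 ± 0.49 (SE), and both missed the call by edgeR with Benjamini-Hochberg adjustment (adjusted p = 0.0746 and 0.0833). The LF-fed TSP1F/F mice held 7, 2, 0 and 1 counts. There Itgb7 passed the filter only through its AMLN-fed mice, in a table selected on this comparison, so its TSP1F/F test is a description. Without LF-fed TSP1F/F replicate 1 the LF-fed mice hold 3 counts, the ratio of means was 63.5 (95% counting interval 23.5 to 338), and the fitted log2 fold change of 5.87 depends on the prior count. The RefSeq promoter window of Itgb7 (GRCm38.p6) is shown as that of a leukocyte integrin with higher values on AMLN in both genotypes, and capitals mark the letters GAGGAA of PU.1 and other ETS factors, here on the reverse complement.
Itgb7, chr15:102231886-102232185, reverse strand: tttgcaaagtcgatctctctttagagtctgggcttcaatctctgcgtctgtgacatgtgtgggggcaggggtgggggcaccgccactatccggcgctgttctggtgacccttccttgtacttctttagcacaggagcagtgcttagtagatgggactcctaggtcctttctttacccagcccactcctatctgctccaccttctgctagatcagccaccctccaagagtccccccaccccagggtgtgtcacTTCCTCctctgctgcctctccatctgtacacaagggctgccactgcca
GAGGAA or its reverse complement was found in 28.3% of all promoter windows and in 17 of the 41 members with a window. The most abundant β chain, Itgb5, which binds vitronectin, was listed for TSP1F/F only and had 33.1, 30.0, 14.6 and 40.9 CPM on LF and 90.9, 45.2, 59.3 and 27.99 on AMLN. AMLN-fed replicate 4 was among the LF-fed mice, and the log2 fold change was 0.91 ± 0.40 (SE).

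**Figure D2:**
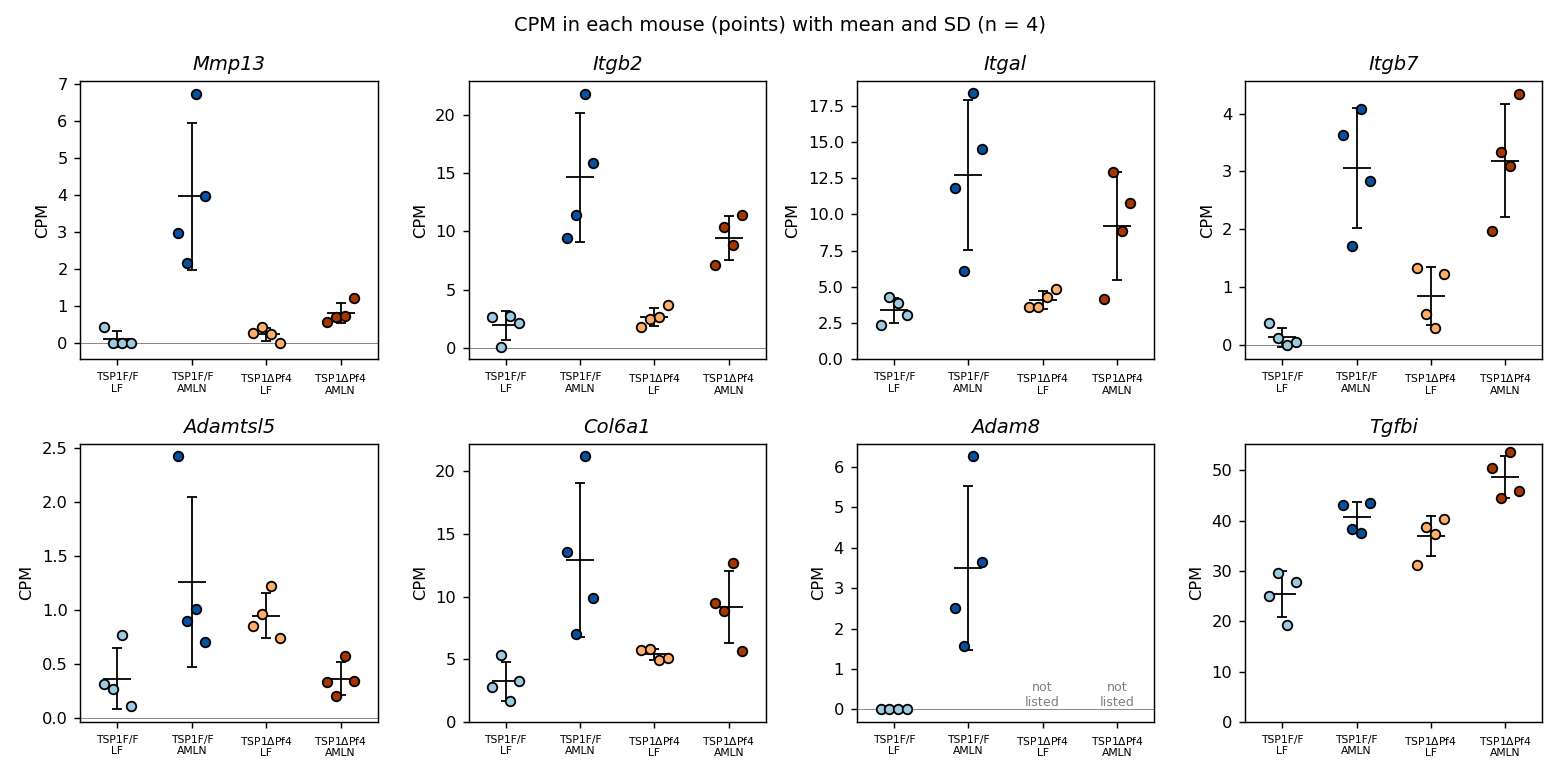
CPM (vertical axis, starting at or just below 0) of 8 members in each mouse (points), with the mean and SD of the 4 mice of a group (bars), by genotype and diet. Mmp13 spanned 2.16 to 6.74 CPM in TSP1F/F and 0.567 to 1.21 in TSP1ΔPf4 mice on the AMLN diet, and Adamtsl5 was lower on AMLN in TSP1ΔPf4 mice. Adam8 was listed for TSP1F/F only.

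The TGF-β genes were 4, all listed for TSP1F/F and 2 for both genotypes. Tgfbr2, the receptor chain that binds the ligand, had 12.004, 8.84, 6.34 and 10.6 CPM in LF-fed and 30.3, 22.5, 43.4 and 15.96 in AMLN-fed TSP1F/F mice. In TSP1ΔPf4 mice it had 14.5, 17.9, 9.63 and 15.4 on LF and 25.7, 35.5, 33.5 and 14.8 on AMLN. AMLN-fed replicate 4 was the lowest of its group in both genotypes and lay within the LF range in TSP1ΔPf4, with log2 fold changes of 1.57 ± 0.36 (SE) and 0.93 ± 0.30 (SE). Tgfbi, a secreted matrix protein induced by TGF-β, had 25.1, 29.6, 19.2 and 27.7 CPM on LF and 43.2, 38.3, 37.6 and 43.5 on AMLN in TSP1F/F mice. The TSP1ΔPf4 mice had 31.2, 38.7, 37.4 and 40.3 on LF and 50.5, 44.5, 53.6 and 46.0 on AMLN. The diets did not overlap in either genotype, with log2 fold changes of 0.68 ± 0.23 (SE) and 0.40 ± 0.18 (SE). The ligands Tgfb1 and Tgfb3 were listed for TSP1F/F, at 1.23 ± 0.38 (SE) without overlap and 2.35 ± 0.69 (SE) with overlap (1.63 without AMLN-fed replicate 3), and Tgfb3 shares 12.4% of its exon bases with genes on the opposite strand. In edgeR's test with Benjamini-Hochberg adjustment, 0 of 4 were called in TSP1F/F (adjusted p-values from 0.105 to 0.313) and 0 of 2 in TSP1ΔPf4 (0.126 and 0.256), though all had an unadjusted p under 0.05, against 53% and 33.8% of the genes tested. DESeq2 called 1 and 2, against 13.6% and 32.7%. Tgfbrap1, an intracellular trafficking protein whose name fits the pattern, had 30.2, 23.4, 8.35 and 25.0 CPM on LF and 34.2, 46.1, 46.5 and 21.2 on AMLN in TSP1ΔPf4 mice, where LF-fed replicate 3 was the low mouse and the log2 fold change was 0.77 ± 0.37 (SE).

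The comparison of AMLN-fed genotypes asked which members differed when platelets lacked Thbs1, over the genes listed for both. All 14 shared members passed the filter. Mmp13 was lower in TSP1ΔPf4 mice, at 0.801 ± 0.279 CPM against 3.96 ± 2.00 (SD, n = 4 each), and its 4 mice lay below the 4 TSP1F/F mice. By edgeR with Benjamini-Hochberg adjustment, Mmp13 fell (log2 fold change -2.31 ± 0.51 (SE), adjusted p = 0.0182, lower in 4 of 4 mice). It was the 1 call among 14 members, with 0 called higher, against 8.46% of 733 genes tested called lower and 0.546% called higher. With the replicate number as a block, 103 of all genes (14.1%) were called lower and 13 higher, in place of 62 and 4, and Mmp13 was still called. The call of Mmp13 was lost in a fit of all 4 groups (log2 fold change -2.30) and without TSP1F/F replicate 3 (-1.92) or TSP1ΔPf4 replicate 1 (-2.17), 2 (-2.25) or 3 (-2.27), and Mmp13 stayed lower by every scaling tried.

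All genes in both tables tended to be lower in AMLN-fed TSP1ΔPf4 mice by library totals, with a median log2 fold change of -0.38. This median was -0.10 with TMM and -0.03 by the DESeq2 scaling, and the calls over all genes, 4 higher and 62 lower, became 11 and 37 with TMM and 17 and 56 with DESeq2. The members' median was -0.42, and it was -0.13 with TMM and -0.04 with DESeq2. With the replicate number as a block the median was -0.22 over the members and -0.32 over all genes, so the members then lay above all genes. Of the 14, 11 had a negative log2 fold change by library totals and 8 by TMM or DESeq2, and 8 lay below the all-gene median.

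Groups did not overlap in 3 of the 14 shared members. Mmp13 and Adamtsl5, 2 of 14, were lower in every AMLN-fed TSP1ΔPf4 mouse, a share near the 12.1% of all 752 shared genes, and Tgfbi, 1 of 14, was higher, against 2.53%. Adamtsl5 had 0.364 ± 0.153 CPM in TSP1ΔPf4 and 1.26 ± 0.785 in TSP1F/F mice (SD, n = 4 each). Its log2 fold change was -1.77 ± 0.66 (SE), which was not called by edgeR with Benjamini-Hochberg adjustment (adjusted p = 0.117). Adamtsl5 passed the filter here only through its TSP1F/F mice, so this test is a description. Tgfbi had 48.6 ± 4.15 CPM against 40.7 ± 3.12 (SD, n = 4 each), a log2 fold change of 0.26 ± 0.23 (SE). Lox was at -1.51 ± 0.78 (SE), with 4 to 92 counts per mouse and overlap. The leukocyte integrins were at -0.63 ± 0.33 (SE) for Itgb2, -0.47 ± 0.41 (SE) for Itgal and 0.05 ± 0.43 (SE) for Itgb7, all with overlapping groups. By same-numbered mice, Itgb2 was lower in TSP1ΔPf4 in 4 of 4 pairs, Itgal in 3 and Itgb7 in 2, and none of them was called with the block. The collagens ran from -0.49 for Col6a1 to 0.15 for Col4a1. Without TSP1F/F replicate 3, Col4a1 was at 0.86 and Col6a2 turned from -0.46 to 0.42. Adamts1, Tgfbr2 and Itga9 were at -0.39, -0.04 and -0.08, with SEs of 0.38, 0.36 and 0.31. Of all 14, the signs of Col14a1, Itga9 and Tgfbr2 turned positive with TMM and with DESeq2, and the others kept theirs.

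**Figure D3:**
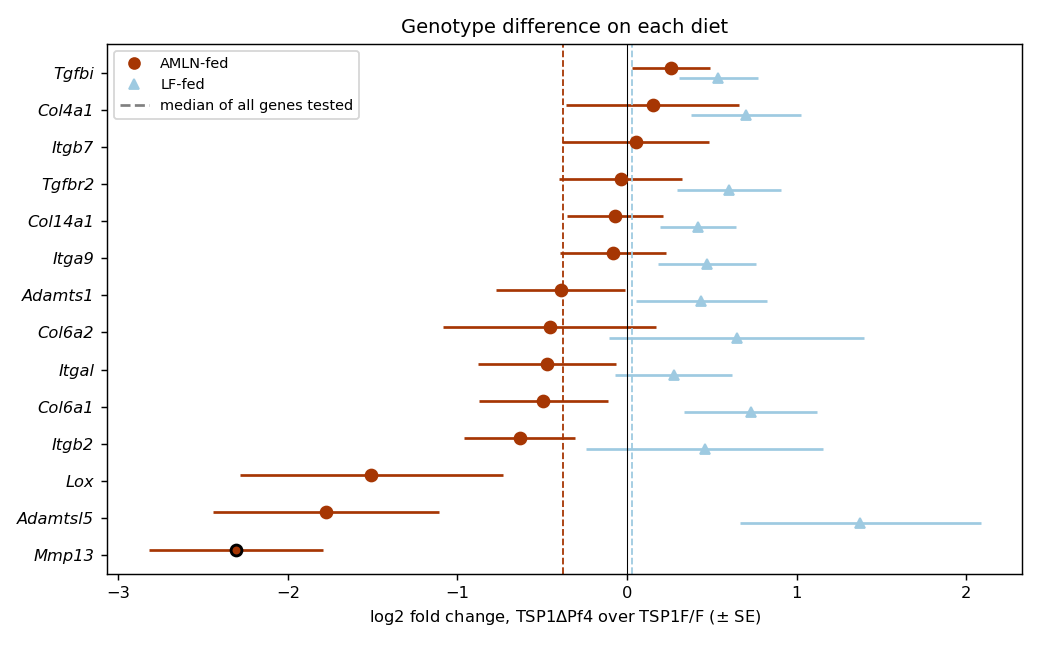
Log2 fold change of CPM, TSP1ΔPf4 over TSP1F/F (horizontal axis), with its SE, for the 14 shared members in AMLN-fed mice (circles) and for the 11 that passed the filter in LF-fed mice (triangles). Dashed lines give the median of all genes tested, -0.38 on AMLN and 0.03 on LF, by library totals. Mmp13, ringed in black, was called in AMLN-fed mice, at -2.31.

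The same comparison on the LF diet gave the genotypes without the AMLN diet. Of 14 members, 11 passed the filter, and all 11 had a positive log2 fold change, from 0.28 for Itgal to 1.37 for Adamtsl5, with a median of 0.54 beside 0.03 over 640 genes tested. With edgeR and Benjamini-Hochberg adjustment, 0 members and 0 genes in all (0% of those tested) were called. At an unadjusted p under 0.05 there was 1 member, Tgfbi, against 6.88% of the genes tested, and DESeq2 called 0 members. Tgfbi had 36.9 ± 3.97 CPM in LF-fed TSP1ΔPf4 mice and 25.4 ± 4.55 in TSP1F/F mice (SD, n = 4 each), a log2 fold change of 0.54 ± 0.23 (SE), and was the member without overlap, higher in TSP1ΔPf4, against 3.19% of 752 shared genes. Adamtsl5 was at 1.37 ± 0.71 (SE), Col6a1 at 0.73 ± 0.39 (SE), Col4a1 at 0.70 ± 0.32 (SE) and Tgfbr2 at 0.60 ± 0.30 (SE), all with overlapping groups, and Adamtsl5 was at 2.03 without TSP1F/F replicate 3. On this diet Adamtsl5 passed the filter only through its TSP1ΔPf4 mice, so its value is a description. The signs of all 11 were the same with TMM and DESeq2.

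The interaction term tests whether the diet response itself differed between the genotypes. Of 14 members, 13 had a negative term by library totals, toward lower AMLN over LF ratios in TSP1ΔPf4 mice, of which Tgfbi turned positive with TMM and with DESeq2. The exception was Lox, with LF-fed mice at or near 0 and a term of 2.99 ± 2.08 (SE) (0.46 without LF-fed TSP1F/F replicate 2), both of which depend on the prior count. In edgeR's test with Benjamini-Hochberg adjustment, 0 members were called, against 3 of 734 genes (0.409%). With an unadjusted p under 0.05 there were 4 members, Mmp13, Adamtsl5, Itgb7 and Col6a1, against 15% of the genes tested. Their terms were -3.48 ± 1.42 (SE), -3.15 ± 0.97 (SE), -2.65 ± 1.00 (SE) and -1.22 ± 0.56 (SE), with adjusted p-values by edgeR with Benjamini-Hochberg adjustment of 0.223, 0.0806, 0.175 and 0.306. DESeq2 called 1 member, Adamtsl5. It passed the filter only through its AMLN-fed TSP1F/F and LF-fed TSP1ΔPf4 mice, so this call is a description. Without LF-fed TSP1F/F replicate 1 the other LF-fed TSP1F/F mice are at 0 for Mmp13 and hold 3 counts for Itgb7, so the terms then fitted, -7.84 (called) and -3.95, depend on the prior count and are descriptions only. Without LF-fed TSP1F/F replicate 3 the term of Adamtsl5 was -3.81, and without AMLN-fed TSP1F/F replicate 3 Col4a1 turned from -0.55 to 0.15 and Col6a2 went from -1.10 to -0.22. The median term was -0.79 over the members and -0.34 over all genes by library totals, -0.39 and 0.05 with TMM, and -0.45 and 0.01 with DESeq2. Hba-a2, the red blood cell marker listed for both genotypes, had a term of -3.54 ± 1.00 (SE), which DESeq2 called and edgeR with Benjamini-Hochberg adjustment did not (adjusted p = 0.0682). It had 0.783, 1.72, 1.76 and 1.35 CPM on LF and 3.42, 2.69, 10.4 and 8.82 on AMLN in TSP1F/F mice, and 17.4, 3.24, 2.86 and 1.06 and 3.50, 3.29, 1.08 and 1.64 in TSP1ΔPf4 mice. Between the genotypes its log2 fold change was -1.41 ± 0.54 (SE) on AMLN and 2.12 ± 0.76 (SE) on LF. LF-fed TSP1ΔPf4 replicate 1, at 17.4 CPM, was far above the other mice of its group. The LF value and the interaction term of Hba-a2 lean on this mouse, and no fit without it is given. The part of blood content in the genotype and interaction values of the members was not tested. The 0 raised and 3 lowered interaction calls over all genes became 8 and 7 with TMM and 12 and 32 with DESeq2. Since this term, both diet comparisons and both genotype comparisons share the same mice, their values are not independent of one another.

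**Figure D4:**
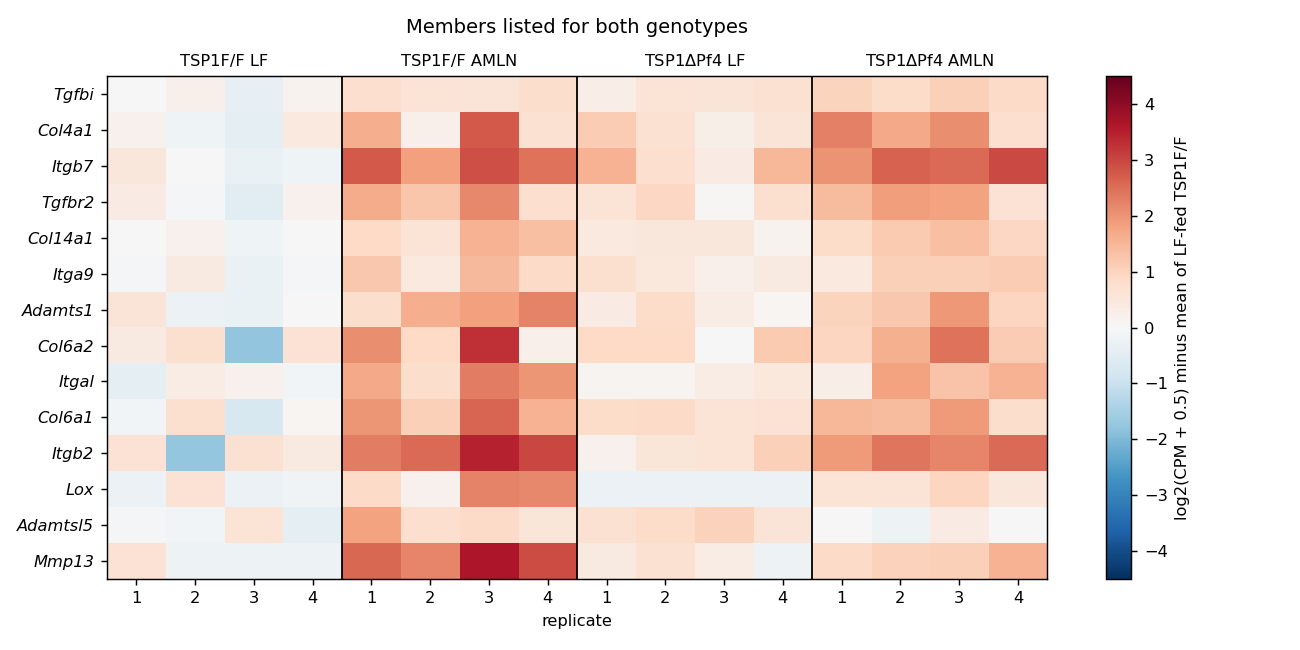
The 14 members listed for both genotypes (down the side) in each of the 16 mice (across, by replicate within group), as log2(CPM + 0.5) minus the mean of the LF-fed TSP1F/F mice (colour). AMLN-fed TSP1F/F replicate 3 has the highest value of all 16 mice for Col14a1, Col4a1, Col6a1, Col6a2, Itga9, Itgal, Itgb2, Lox, Mmp13 and Tgfbr2. Adamtsl5 is lower in AMLN-fed than in LF-fed TSP1ΔPf4 mice.

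Single mice carried much of the variation. Among AMLN-fed TSP1F/F mice, replicate 3 had the highest CPM in 37 of the 55 members with 1 highest mouse, 67.3%, against 31.2% of the listed genes, and replicate 2 the lowest in 28 of 56, against 30.5%. The summed FPKM of the 56 members was 129, 84.1, 178 and 136 in these 4 mice and 57.7, 54.3, 33.7 and 56.5 in the LF-fed mice, of which replicate 3 was lowest in 25 of 56 members, against 20.99% of listed genes. In TSP1ΔPf4 mice the summed FPKM of the 21 members was 27.0, 29.1, 23.8 and 27.6 on LF and 42.4, 47.0, 53.1 and 38.4 on AMLN. LF-fed replicate 3 was lowest in 10 of 21 members, against 24.98% of listed genes. AMLN-fed replicate 3 was highest in 11 of the 20 members with 1 highest mouse, against 16.5% of listed genes, and replicates 1 and 4 were each lowest in 9 of 21, against 21.1% and 26.4%. The AMLN-fed TSP1F/F replicate 3 was also the deepest library, with 39753019 counts, and its red blood cell markers (2 of 5 listed, Hba-a1 the most abundant) summed to 421 CPM, against 85.5, 109 and 141 in the other mice of its group. Its hepatocyte markers (2 of 8 listed, Ttr the most abundant) were the lowest of the group, at 2695 CPM against 4632, 5876 and 4278. The part of depth, blood and hepatocyte content in the members' values was not tested.

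Other genes of the matrix and integrin pathways were followed by 6 lists. Of 6 basement membrane partners, 3 were listed for TSP1F/F and 2 for TSP1ΔPf4, all with higher means on AMLN, and by edgeR with Benjamini-Hochberg adjustment 0 were called in either genotype. Of 20 other matrix proteins, 13 and 6 were listed and 0 were called for the diet. Of 17 collagen processing genes, 3 and 2 were listed, and of 17 TGF-β pathway genes, 3 and 6, again with 0 called. Over all genes tested, an unadjusted p under 0.05 was reached by 53% higher and 27.1% lower in TSP1F/F and by 33.8% higher and 51.9% lower in TSP1ΔPf4, beside which the list counts stand. At this level these 4 lists had 3, 9, 3 and 2 higher genes in TSP1F/F and 1, 3, 2 and 2 higher with 0, 1, 0 and 4 lower in TSP1ΔPf4. DESeq2 called 0, 0, 0 and 1 of them in TSP1F/F and 2 of each list in TSP1ΔPf4. These and the further DESeq2 counts of the lists are for either direction. Over all genes tested DESeq2 called 13.6% raised and 21.8% lowered in TSP1F/F, and 32.7% and 11.8% in TSP1ΔPf4. Integrin partners were listed for 7 and 8 of 17 genes, and Syk, the kinase downstream of leukocyte integrins, rose in TSP1F/F, with 1.04, 1.66, 1.54 and 0.901 CPM on LF and 6.17, 5.57, 16.4 and 6.43 on AMLN (adjusted p = 0.0496, edgeR with Benjamini-Hochberg adjustment, log2 fold change 2.75 ± 0.49 (SE)). It was the 1 call of that list in TSP1F/F, against 2.39% of the genes tested called raised. There 6 genes were higher and 1, Fermt2, lower at an unadjusted p under 0.05, and DESeq2 called 4. Fermt2, in TSP1F/F mice the most abundant gene of the list, had 107, 117, 138 and 77.3 CPM on LF and 56.1, 68.3, 81.1 and 85.2 on AMLN (log2 fold change -0.59 ± 0.25 (SE)). In TSP1ΔPf4 the list had 0 calls by edgeR with Benjamini-Hochberg adjustment, 6 higher and 0 lower genes at an unadjusted p under 0.05 and 5 calls by DESeq2. Of 10 genes of the plasminogen system and other matrix proteases, 6 and 5 were listed, with 5 higher and 0 lower at an unadjusted p under 0.05 in TSP1F/F and 2 higher and 2 lower in TSP1ΔPf4, and 3 called by DESeq2 in each. The lower genes were Serpinf2 (log2 fold change -0.58 ± 0.19 (SE)) and Reck (-0.74 ± 0.32 (SE)), which were not called by edgeR. Ctss, cathepsin S of macrophages, rose in both genotypes. It had 4.75, 16.9, 14.2 and 9.53 CPM on LF and 52.6, 44.7, 73.5 and 127 on AMLN in TSP1F/F mice and 9.99, 7.44, 17.9 and 14.6 and 33.7, 43.5, 37.0 and 54.2 in TSP1ΔPf4 mice. Its log2 fold changes were 2.71 ± 0.45 (SE) and 1.76 ± 0.29 (SE) (adjusted p = 0.0379 and 0.0318, edgeR with Benjamini-Hochberg adjustment).

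The diet call of Syk was lost without any single mouse, at log2 fold changes of 2.66, 2.90, 2.85 and 2.61 without LF replicates 1 to 4 and 2.88, 2.91, 2.23 and 2.87 without AMLN replicates 1 to 4, and also with the authors' size factors (2.77). That of Ctss in TSP1F/F was kept without LF replicate 3 and lost without any other single mouse, at 2.46, 2.97 and 2.64 without LF replicates 1, 2 and 4 and 2.85, 2.89, 2.72 and 2.33 without the AMLN replicates. In TSP1ΔPf4 it was kept without LF replicate 3 or AMLN replicate 4, and lost without LF replicates 1, 2 and 4 (1.66, 1.57 and 1.84) and without AMLN replicates 1, 2 and 3 (1.85, 1.74 and 1.81).

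Between the AMLN-fed genotypes, 2 genes of these lists were called, both lower. Over all 733 genes tested, 8.46% were called lower, and 14.1% with the replicate number as a block. In the order first named, the lists had 2, 3, 1, 2, 4 and 2 genes tested and 0, 1, 0, 1, 0 and 0 called. At an unadjusted p under 0.05 they had 1, 1, 0, 1, 0 and 2 lower genes and 0 higher. Fmod, the fibril-binding proteoglycan fibromodulin, had 6.96, 1.03, 50.2 and 9.91 CPM in TSP1F/F and 2.14, 0.535, 1.37 and 0.818 in TSP1ΔPf4 mice. Cyr61, a matrix-associated protein that binds integrins, had 13.2, 24.3, 79.9 and 66.9 and 10.7, 8.55, 16.7 and 18.5. The groups overlapped for both genes, through TSP1F/F replicate 2 for Fmod and replicate 1 for Cyr61, and TSP1F/F replicate 3 was the highest mouse for each. By same-numbered mice both were lower in TSP1ΔPf4 in 4 of 4 pairs, with -2.93 for Fmod and -1.49 for Cyr61 where the number was a block, both still called. By edgeR with Benjamini-Hochberg adjustment both fell, with log2 fold changes of -3.80 ± 0.91 (SE) (adjusted p = 0.0219) and -1.76 ± 0.51 (SE) (adjusted p = 0.0480). The call of Fmod was lost without TSP1F/F replicate 3 (-2.28) and TSP1ΔPf4 replicates 2, 3 and 4 (-3.56, -3.86 and -3.65). That of Cyr61 was lost with TMM (-1.45), in a fit of all 4 groups (-1.76), without TSP1F/F replicates 3 and 4 (-1.35 and -1.52) and without any 1 TSP1ΔPf4 mouse (-1.66, -1.59, -1.87 and -1.94). In the LF-fed genotypes and for the interaction, 0 genes of the 6 lists were called by edgeR with Benjamini-Hochberg adjustment. With an unadjusted p under 0.05 there were 0 in the first and 1 lower gene in each list but collagen processing in the second. Over all genes tested these shares were 6.88% and 15%. DESeq2 called 0 in the first and 1, of other matrix proteins, in the second.

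Macrophage markers, like the leukocyte integrins and Mmp13, were higher on AMLN. Of 12 markers of monocyte-derived macrophages, 9 were listed for TSP1F/F and 8 for TSP1ΔPf4, all with higher means on AMLN. By edgeR with Benjamini-Hochberg adjustment 2 were called raised in TSP1F/F (Trem2 and Gpnmb) and 1 in TSP1ΔPf4 (Gpnmb), against 2.39% and 1.46% of the genes tested. Gpnmb had 0, 0, 0.221 and 0.450 CPM in LF-fed TSP1F/F and 0.159, 0.338, 0 and 0.318 in LF-fed TSP1ΔPf4 mice, so it passed the filter only through its AMLN-fed mice, in tables selected on this comparison, and its 2 diet calls are descriptions. Their summed level was 97.0, 177, 459 and 85.5 CPM in LF-fed and 465, 547, 802 and 2314 in AMLN-fed TSP1F/F mice. In TSP1ΔPf4 mice it was 45.8, 50.9, 117 and 64.1 on LF and 155, 132, 144 and 231 on AMLN, over 8 genes in place of 9, without Spp1, so that the sums of the genotypes do not compare. Lyz2 was the most abundant marker in every group, and no listed marker was at 0 in a whole group. Between the AMLN-fed genotypes all 8 shared markers were lower in TSP1ΔPf4 mice, with a median log2 fold change of -1.80 beside -0.38 over all genes tested. By edgeR with Benjamini-Hochberg adjustment 4 were called lower, Trem2, Gpnmb, Clec7a and Lyz2, against 8.46% of the genes tested. On the LF diet 5 of the 8 had a lower mean in TSP1ΔPf4 mice. The median of the 7 tested there was -0.31, beside 0.03 over all genes, and 0 were called. The calls of Trem2 in TSP1F/F and Gpnmb in TSP1ΔPf4 were lost without LF replicate 4 (4.66 and 5.35), and that of Lyz2 between the genotypes without TSP1ΔPf4 replicate 2 (-2.38). Without AMLN-fed TSP1F/F replicate 4 the genotype values were -2.22 for Trem2, -2.15 for Clec7a and -1.59 for Lyz2, from -3.06, -3.42 and -2.51, and the diet value of Trem2 was 3.86, from 4.71. Without LF-fed TSP1F/F replicate 4 the LF-fed mice hold 4 counts of Gpnmb, all in replicate 3, so the diet value then fitted, 8.98 in place of 7.70, depends on the prior count. In AMLN-fed TSP1F/F mice the macrophage marker sum had a mean of 1032 CPM, of which Lyz2 held 622. That sum was highest in replicate 4, and Mmp13, Itgb2 and Itgal were highest in replicate 3. The part of macrophage content in the values of these members was not tested.

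Kupffer cell markers were listed for 7 of 9 genes in TSP1F/F and 5 in TSP1ΔPf4. By edgeR with Benjamini-Hochberg adjustment, 1 (C1qc) and 2 (C1qc and Vsig4) were raised, against 2.39% and 1.46% of the genes tested. Between the AMLN-fed genotypes, Cd5l was the 1 of 5 called lower in TSP1ΔPf4 mice, against 8.46%. Marco, a scavenger receptor, was the exception in TSP1F/F, with 1.04, 1.02, 8.99 and 2.29 CPM on LF and lower values in all AMLN-fed mice, 0.847, 0.359, 0.704 and 0 (log2 fold change -2.75 ± 1.03 (SE), not called). LF-fed replicate 3, at 8.99 CPM, was far above the other LF-fed mice for Marco, and no fit without it is given. The Kupffer marker calls depended on single mice as well. That of Cd5l (-1.31) was lost with TMM (-0.99), with DESeq2 (-0.93), in a fit of all 4 groups (-1.31), without TSP1F/F replicates 3 and 4 (-1.40 and -0.84) and without each TSP1ΔPf4 mouse (-1.31, -1.31, -1.26 and -1.39). C1qc in TSP1F/F was lost without LF replicates 1, 2 and 4 (1.91, 2.10 and 1.97) and each AMLN mouse (2.07, 2.11, 2.18 and 1.86). In TSP1ΔPf4, C1qc was lost without LF replicates 2 and 4 (1.36 and 1.42) and AMLN replicates 1, 2 and 3 (1.44, 1.46 and 1.43), and Vsig4 without LF replicates 1, 2 and 4 (1.14, 1.19 and 1.12) and AMLN replicates 1, 2 and 3 (1.24, 1.10 and 1.23). The summed Kupffer markers were at 77.8, 182, 323 and 118 CPM on LF and 507, 491, 521 and 1096 on AMLN in TSP1F/F mice, and 72.8, 97.5, 144 and 115 and 262, 246, 224 and 294 in TSP1ΔPf4 mice, over 7 genes and over 5. Clec4f, which was not listed for TSP1ΔPf4, had the highest mean CPM in LF-fed TSP1F/F mice and Cd5l in the other 3 groups. Of 12 markers of stellate cells and fibroblasts, the cells that make most of the collagen of a fibrotic liver, 3 were listed for each genotype (Acta2, Pdgfrb and Vim for TSP1F/F, and Pdgfra, Pdgfrb and Cygb for TSP1ΔPf4). Their sums were 19.5, 19.3, 9.70 and 15.8 CPM on LF and 54.8, 43.0, 109 and 89.1 on AMLN in TSP1F/F mice. In TSP1ΔPf4 mice they were 18.2, 18.5, 12.7 and 14.1 and 28.3, 21.3, 31.4 and 18.4, over a different set of genes. Vim, which leukocytes express as well, was the most abundant in TSP1F/F. It rose with the diet by edgeR with Benjamini-Hochberg adjustment (log2 fold change 2.37 ± 0.35 (SE), adjusted p = 0.0214). This was the 1 call of that list, against 2.39% of the genes tested called raised. The call was lost without LF replicates 1, 2 and 4 (2.44, 2.41 and 2.39) and AMLN replicates 3 and 4 (2.08 and 2.28). AMLN-fed replicate 3 of TSP1F/F had the highest sum, as it had the highest CPM of most members, and the part of stellate cell content was not tested.

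The other marker lists held few listed genes. T cell markers were listed for 3 and 2 of 8 genes, and Cd8a, at 0 in 3 of 4 LF-fed mice of each genotype, was called in TSP1F/F (adjusted p = 0.0442, edgeR with Benjamini-Hochberg adjustment). It had 1 count in all LF-fed TSP1F/F mice together and 0.756, 1.48, 3.25 and 1.03 CPM on AMLN, a ratio of means of 118 (95% counting interval 26.6 to 5953). It passed the filter only through its AMLN-fed mice, in a table selected on this comparison, so the call is a description, and its fitted log2 fold change of 6.55 depends on the prior count. The call was lost without any single mouse, at fitted values of 6.27, 6.27, 8.38 and 6.15 without LF replicates 1 to 4 and 6.76, 6.60, 5.92 and 6.73 without AMLN replicates 1 to 4. For TSP1F/F alone, 3 of 8 neutrophil, 1 of 5 B cell and 2 of 9 platelet and megakaryocyte markers were listed, with higher means on AMLN and 0 called by edgeR with Benjamini-Hochberg adjustment (2, 0 and 2 at an unadjusted p under 0.05, and 0, 0 and 1 by DESeq2). Their sums in AMLN-fed mice were 5.11, 3.10, 7.77 and 11.5 CPM for neutrophils, 2.06, 1.48, 4.30 and 6.32 for B cells and 11.6, 12.1, 10.4 and 17.4 for platelets, with S100a8, Cd79b and Clec1b the most abundant. The mean platelet sum there was 12.9 CPM, of which Clec1b held 9.52, so this sum mostly follows 1 gene. Endothelial markers were listed for 3 of 8 genes in each genotype, cholangiocyte markers for 3 and 2 of 7, hepatocyte markers for 2 and 4 of 8 and red blood cell markers for 2 and 1 of 5, with 0 called in either genotype by edgeR with Benjamini-Hochberg adjustment. At an unadjusted p under 0.05 the endothelial, cholangiocyte and red blood cell lists had 3, 3 and 2 higher and 0 lower genes in TSP1F/F, and 2, 2 and 0 higher and 1, 0 and 0 lower in TSP1ΔPf4. The hepatocyte markers had 0 higher and 2 lower in TSP1F/F and 1 higher and 3 lower in TSP1ΔPf4. In the order first named, DESeq2 called 0, 0, 2 and 1 and 2, 1, 2 and 0, in either direction. These marker counts stand beside the shares of all genes given with the pathway lists. Spp1 stands in the lists of other matrix proteins, macrophages and cholangiocytes alike, and had 47.1, 57.2, 30.2 and 37.1 CPM on LF and 62.3, 49.2, 223 and 122 on AMLN in TSP1F/F mice.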

How the data were processed

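Raw counts per gene were made by the authors and deposited for 16 mice in 1 table per genotype, as were FPKM, a normalised signal (count over 1 size factor per library, by the authors), and the authors' log2 fold changes and p-values for the diet. The authors' log2 fold changes were not used, and the deposited p-values served only to find that genes had been kept at p under 0.05 and that adjustment had covered 16784 and 13927 genes. The paper's methods name STAR 2.7.8a and mm10, and the submitters' processing notes HISAT2, DESeq2 and mm10, so the aligner is uncertain. The counting program, annotation and strandedness are not given in the sources used here.

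Library totals were recovered from counts, gene lengths and FPKM. edgeR 4.0.16 (quasi-likelihood, filterByExpr) in R 4.3.3 with limma 3.58.1 was fitted on whole tables and tested on simulated data. Benjamini-Hochberg adjustment covered the authors' number of genes for the diet and the genes tested otherwise. Since the listed genes were selected, the shared dispersion came from selected genes, and TMM and DESeq2 1.42.0 scale on them. Genotypes were compared only over the 752 shared genes, across tables normalised separately by the authors, using library totals. Coordinates of 62 of 63 members equal those of GENCODE M21. Sequences are from RefSeq (GRCm38.p6). A floor was 3 counts, per library, and covers counting error only.

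Named members were those in both tables, per diet, among those without overlap, up to 8 of the highest and 5 of the lowest log2 fold change, those called, and the 2 of highest FPKM per role. Other members named were chosen after their values were seen. Members and lists were chosen with earlier results of these data known. Same-numbered AMLN-fed mice of the 2 genotypes deviated together weakly (correlations of 0.223, 0.115, 0.236 and 0.271 over genes, from the numbers in the labels). In LF-fed mice of the 2 genotypes the correlations were 0.165, 0.082, 0.411 and -0.055. The best match was the own number except for replicate 2 on AMLN and replicate 4 on LF. Whether the numbers mark pairs is not stated in the labels. The values given are from fits without a block in every comparison, and a block by replicate number was an alternative. Alternatives were DESeq2, TMM, no filter, a replicate block, the authors' size factors, other adjustments, all groups in 1 fit and each mouse left out. DESeq2 with the authors' size factors was added after seeing the data.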

Additional observations from a re-analysis of the deposited data

Results flagged for a closer look

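In each group of 4 mice, a mouse was looked at again when its gap to the nearest other mouse took up more of the group's range than Dixon's 95% limit for 4 values. Of 143 sets of 4 mice examined, 11 met this, and chance flags about 1 in 20 groups. Not counted were Adam22 and Adamts4 in LF-fed TSP1F/F mice, above 0 in 1 mouse only, at 2 and 1 counts. Among AMLN-fed TSP1F/F mice, replicate 3 was far above the others for Adamts4 (3.04 CPM), Itga4 (11.8 CPM) and Itga6 (4.38 CPM), and replicate 4 for Mmp27 (10.3 CPM) and Mmp8 (1.47 CPM). Among LF-fed TSP1F/F mice, the far mouse was replicate 1 for Mmp13 (0.418 CPM), replicate 2 for Lox (0.429 CPM), replicate 3 for Mmp27 (0.827 CPM) and replicate 4 for Adamts12 (0.15 CPM), all others being at or near 0. Among TSP1ΔPf4 mice, LF-fed replicate 4 was high for Col7a1 (1.38 CPM) and AMLN-fed replicate 1 was low for Itga9 (8.94 CPM).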

How the results depend on the processing

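The number of members called by diet in TSP1F/F, 1 by edgeR, was 14 by DESeq2, 2 with TMM, 2 without a filter, 19 by DESeq2 with the authors' size factors, 26 when adjusted over the tested genes alone, 0 with a replicate block, and 0 to 2 without single mice. In TSP1ΔPf4 the number, 1 by edgeR, was 12 by DESeq2, 2 with TMM, 7 by DESeq2 with the authors' size factors, 12 adjusted over the tested genes alone, 0 with a replicate block, and 0 to 2 without single mice. Between AMLN-fed genotypes 1 was called, 0 in a fit of all 4 groups and 0 to 1 without single mice. Between LF-fed genotypes 0 were called, with 0 to 0 without single mice. For the interaction 0 were called, 1 by DESeq2 and 0 to 1 without single mice. In the diet comparisons, where the mice share only a number (correlations of the deviations of same-numbered mice from -0.298 to 0.21 in TSP1F/F and -0.397 to 0.191 in TSP1ΔPf4, and best with the own number in 1 and 0 of 4 pairs), the calls not made with the replicate block were those of Adam8 (9.39), Syk (2.64), Vim (2.27), Cd8a (6.69), Ctss (2.75) and C1qc (2.08) in TSP1F/F and Itgb2 (1.85), Ctss (1.81), C1qc (1.47) and Vsig4 (1.14) in TSP1ΔPf4. Between the AMLN-fed genotypes the block changed no call of a member or of a called list gene. The cause of these changes was not tested, except that fewer genes were adjusted over or fewer mice used where so named.

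Of the values of named members, 22 changed sign. Between AMLN-fed genotypes, by DESeq2 and TMM, Col14a1 was at 0.30 and 0.22, Itga9 at 0.27 and 0.19 and Tgfbr2 at 0.32 and 0.23. Without TSP1F/F replicate 3, Col14a1 was at 0.10, Col6a2 at 0.42, Itga9 at 0.09 and Tgfbr2 at 0.25, and without TSP1ΔPf4 replicate 1 Col14a1 was at 0.01, Itga9 at 0.06 and Col4a1 at -0.04. Col4a1 was at -0.13 and -0.07 without TSP1F/F replicates 2 and 4, Itgb7 at -0.15 without TSP1F/F replicate 2 and -0.13 without TSP1ΔPf4 replicate 4, and Tgfbr2 at 0.00 without TSP1F/F replicate 1 and 0.17 without TSP1ΔPf4 replicate 4. Without single AMLN-fed mice the values ran from -0.22 to 0.10 for Col14a1, -0.13 to 0.86 for Col4a1, -0.89 to 0.42 for Col6a2, -0.24 to 0.09 for Itga9 and -0.23 to 0.25 for Tgfbr2. The interaction of Tgfbi was 0.04 by DESeq2 and 0.11 with TMM, and that of Col4a1 ran from -0.83 to 0.15 without single mice, the last without AMLN-fed TSP1F/F replicate 3. The cause was not tested. Of the other values of named members and counts, 1178 kept their direction and side of the threshold, 76 came past it and 19 no longer did. Genes at a few counts per library, such as Mmp8 and, in LF-fed mice, Lox and Mmp13, are limited by depth.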
